A study of Mus musculus with 11 samples.

Results

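The macrophage genes of the mouse molar tooth germ were described here as 9 genes, *Csf1r*, *Emr1*, *C1qa*, *C1qb*, *C1qc*, *Cd68*, *Mrc1*, *Cx3cr1* and *Lyz2*. They were chosen by name as genes that mark macrophages, and all 9 were found among the 16755 genes of the expression table. RNA came from maxillary molar tooth germs at embryonic day 14.5, with n = 6 per biological replicate, where 6 may count germs or embryos. The wild-type group (Cilk1+/+) had 4 libraries and the Cilk1-/- group had 4 libraries, in which EIIa-Cre, which acts in the early embryo, had deleted exon 6 of *Cilk1* throughout the body. The Cilk1-/-;PCS1-MRCS1△/△ group, called the compound mutant, had 3 libraries and carried the same *Cilk1* deletion together with a deletion (PCS1-MRCS1△/△) that removes 70 kb of DNA holding enhancers of *Shh* for the mouth. No group carried the PCS1-MRCS1 deletion alone, so a difference between the compound mutant and the Cilk1-/- group cannot be split into the deletion by itself and its combination with *Cilk1* loss. The comparisons ask whether genes of tissue macrophages differ between tooth germs in which Hedgehog signaling was lowered to different degrees.

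Macrophages are phagocytes that settle in every organ of the embryo, where they clear dying cells and remodel tissue. The first of them come from the yolk sac and later ones from the fetal liver. They need signaling through the receptor Csf1r to survive, and the transcription factor PU.1, encoded by *Spi1*, to form at all.

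Values were log2 of a normalized expression value plus 1, and that normalized value is probably FPKM, which is scaled to gene length and library size. Tests were those of limma on all 16755 genes with Benjamini-Hochberg adjustment. A gene was called where its adjusted p-value was under 0.05 and its fold change at least 1.5, which is 0.585 on the log2 scale. The targeted gene, listed as *Ick*, lay between 3.45 and 3.60 in wild-type libraries, between 2.72 and 2.86 in Cilk1-/- libraries and between 2.60 and 2.67 in compound mutant libraries. Its log2 fold change was −0.73 ± 0.05 (SE, n = 4 and 4) in Cilk1-/- and −0.89 ± 0.05 (SE, n = 3 and 4) in the compound mutant against wild type (limma, adjusted p = 0.000224 and 6.22e-05). Tooth markers were present in every library, with *Krt14* of the epithelium between 6.83 and 8.18 and *Msx1* of the mesenchyme between 6.72 and 7.78. *Ptprc*, the pan-leukocyte phosphatase CD45, was low, between 0.57 and 1.06. In such whole-organ RNA, fewer macrophages and less of a transcript per macrophage cannot be told apart.

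The libraries differ in ways that bear on these genes. Wild-type and Cilk1-/- libraries of the same number deviated from their group means in opposite directions, with correlations over 16755 genes of −0.74, −0.89, −0.85 and −0.79 for numbers 1 to 4, so those 8 libraries are not independent of each other. Compound mutant replicate 1 stood apart from the other 10 libraries on the first principal component, at 48.5 against −11.2 to 6.63, and held the most *Stmn2*, a gene of growing neurons, at 5.95 against 1.03 to 3.34. The library names in the labels are numbered from 1 on in 2 separate runs, and the 3 compound mutant libraries were taken to form one set with wild-type replicate 4 and Cilk1-/- replicate 4, although the labels name no set or batch. Nothing in the labels says whether the replicates of a group came from separate litters, so p-values measure the spread between these libraries only.

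The promoters are shown for the 4 members that carry one short word, AGGAAGT, the core bound by ETS factors such as PU.1, the factor on which the lineage depends. RefSeq promoter sequences (GRCm38.p6) were found for 6 of the 9 members. *Csf1r*, *Emr1* and *C1qa* had no entry. Bases were searched on both strands in the 250 bases before the RefSeq start. Each sequence below is printed 5′ to 3′ on the gene's own strand and stops before the earlier of the RefSeq and GENCODE starts. The 7 capitals mark the word, which in all 4 genes lies on the opposite strand and so reads ACTTCCT here.

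Lyz2: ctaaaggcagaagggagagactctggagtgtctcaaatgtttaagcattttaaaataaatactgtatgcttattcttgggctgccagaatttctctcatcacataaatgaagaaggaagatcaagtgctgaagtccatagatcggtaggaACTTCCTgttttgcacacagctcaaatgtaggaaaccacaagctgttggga
C1qb: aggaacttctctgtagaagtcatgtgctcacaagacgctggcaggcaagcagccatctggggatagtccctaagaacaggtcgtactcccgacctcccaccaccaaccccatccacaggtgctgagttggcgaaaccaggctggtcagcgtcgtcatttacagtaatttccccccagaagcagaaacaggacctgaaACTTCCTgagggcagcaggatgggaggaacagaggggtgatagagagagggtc
C1qc: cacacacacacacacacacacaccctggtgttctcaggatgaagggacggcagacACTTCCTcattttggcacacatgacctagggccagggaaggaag
Mrc1: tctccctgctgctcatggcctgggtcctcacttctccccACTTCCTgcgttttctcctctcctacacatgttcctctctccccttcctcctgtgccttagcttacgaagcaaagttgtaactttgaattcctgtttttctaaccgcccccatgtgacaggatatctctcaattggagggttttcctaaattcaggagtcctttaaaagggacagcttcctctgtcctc

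The *Lyz2* sequence is chr10:117282322-117282522 on the minus strand, and its word begins 100 bases before the RefSeq start. The *C1qb* sequence is chr4:136886201-136886450 on the minus strand, with the word 53 bases before the start. The *C1qc* sequence is chr4:136893066-136893164 on the minus strand, with the word 195 bases before the start. The *Mrc1* sequence is chr2:14229164-14229391 on the plus strand, with the word 211 bases before the start. The word was present in 4 of the 6 member promoters, and in 8.8% of the 27025 genes with a promoter of this length. In the 5 further macrophage lists used below it was present in 18.2% of receptor genes and 21.1% of adaptor and kinase genes. The share was 22.2% of lysosomal and secreted product genes, 9.09% of ligand genes and 7.14% of transcription factor genes. It was not found in the windows of *Cd68* and *Cx3cr1*. The *Cx3cr1* window lies before the RefSeq start but wholly inside the GENCODE gene, so it is not upstream of both starts. The TATA box word TATAAA was present in 0 of the 6 windows and in 14.3% of the 27025 genes. A match is a run of letters and was not tested as a binding site.

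In GRCm38 with the GENCODE annotation, all 9 members are protein-coding genes. The C1q genes stand side by side on the minus strand of chromosome 4 between 136880129 and 136898803, in the order *C1qb*, *C1qc*, *C1qa*, within 18675 bp and with gaps of 3616 and 2851 bp. *Lyz2* lies on chromosome 10 from 117277331 to 117282321, next to its close copy *Lyz1* at 117287797 to 117292868. Of the 444 coding bases compared between *Lyz1* and *Lyz2*, 422 were identical (95%), with the longest identical run at 118 bases. *Lyz1* had no row among the genes analysed, so reads from either copy may have been counted or dropped in a way that the *Lyz2* values cannot show. *Emr1*, now named *Adgre1*, lies on chromosome 17 from 57358691 to 57483527. *Mrc1* lies on chromosome 2 from 14229392 to 14332057, *Cd68* on chromosome 11 from 69664213 to 69666153, *Cx3cr1* on chromosome 9 from 119901616 to 120069879 and *Csf1r* on chromosome 18.

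All 9 genes were detected in all 11 libraries. In wild-type germs the order of mean levels on the length-scaled log2 scale was *Lyz2* at 3.84 ± 0.24, *C1qb* at 3.39 ± 0.18, *Cd68* at 3.15 ± 0.12, *C1qa* at 3.03 ± 0.18, *Csf1r* at 2.98 ± 0.11, *C1qc* at 2.95 ± 0.17, *Mrc1* at 2.30 ± 0.095, *Cx3cr1* at 1.92 ± 0.044 and *Emr1* at 1.41 ± 0.062 (SD, n = 4). From *Cd68* to *C1qc*, each gene differed from its neighbour in this order by less than 1 SD, whereas *Mrc1*, *Cx3cr1* and *Emr1* were separated from their neighbours by more than 3 SDs. The summed level of the 9 genes, after turning values back from the log2 scale, was 54.7 to 70.4 in wild-type libraries, 56.4 to 65.3 in Cilk1-/- libraries and 60.0, 43.8 and 57.9 in compound mutant replicates 1 to 3.

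**Figure D1:**
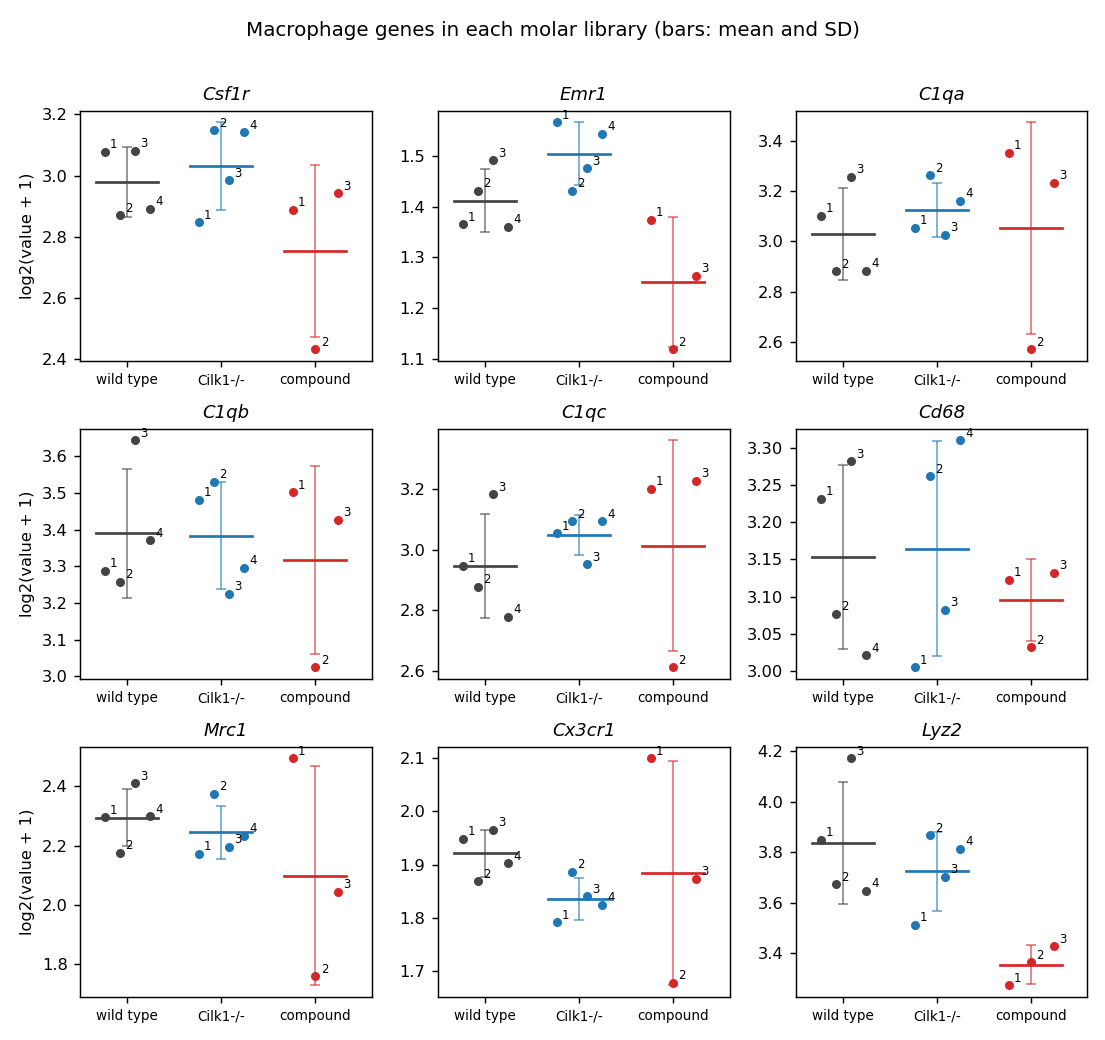
Each panel plots the log2(value + 1) of one macrophage gene in every library by genotype, numbered by replicate, with the horizontal line at the group mean and the bar at 1 SD (n = 4, 4 and 3; the vertical scale differs between panels and does not start at 0). Lyz2 is lower in the 3 compound mutant libraries, at 3.27 to 3.43, than in all others, at 3.51 to 4.17, while 7 of the 9 genes have their largest SD in the compound mutant, where replicate 2 is the lowest of the 11 libraries for those 7 and replicate 1 the highest for C1qa, Mrc1 and Cx3cr1.

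Receptors were compared first. *Csf1r* encodes the receptor kinase for CSF1 and IL-34, on which tissue macrophages depend. Its values were 3.08, 2.87, 3.08 and 2.89 in wild-type replicates 1 to 4, 2.85, 3.15, 2.98 and 3.14 in Cilk1-/- replicates 1 to 4, and 2.89, 2.43 and 2.94 in compound mutant replicates 1 to 3. Only compound mutant replicate 2 lay below the range of the other libraries. The log2 fold change of *Csf1r* was 0.05 (95% interval −0.21 to 0.31) in Cilk1-/- against wild type, −0.23 (−0.50 to 0.05) in the compound mutant against wild type and −0.28 (−0.55 to −0.00011) in the compound mutant against Cilk1-/- (limma, adjusted p = 0.856, 0.268 and 0.216). Without compound mutant replicate 2 the last 2 differences were −0.065 and −0.12 (adjusted p = 0.665 and 0.467).

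*Emr1* encodes F4/80, the surface receptor that defines mature mouse macrophages. It was 1.37, 1.43, 1.49 and 1.36 in wild-type libraries, 1.57, 1.43, 1.48 and 1.54 in Cilk1-/- libraries and 1.37, 1.12 and 1.26 in compound mutant libraries. Every compound mutant library lay below every Cilk1-/- library, while the compound mutant and wild type overlapped. The log2 fold change against Cilk1-/- was −0.25 ± 0.07 (SE, 95% interval −0.42 to −0.09), which did not pass (limma, adjusted p = 0.0859). An exact permutation test on the same 7 libraries gave p = 0.0571 (two-sided), the smallest that 3 against 4 libraries allow. Against wild type the difference was −0.16 (limma, 95% interval −0.32 to 0.0049, adjusted p = 0.199), and from −0.22 to −0.093 with 1 library left out. Under quantile normalization alone *Emr1* had an adjusted p of 0.0396 against wild type and 0.0397 against Cilk1-/-.

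*Mrc1* encodes the mannose receptor CD206 of scavenging tissue macrophages. Its values were 2.30, 2.18, 2.41 and 2.30 in wild-type, 2.17, 2.38, 2.20 and 2.23 in Cilk1-/- and 2.49, 1.76 and 2.04 in compound mutant libraries. The compound mutant held both the highest and the lowest of the 11 libraries. Its log2 fold change against wild type was −0.20 (95% interval −0.51 to 0.12, limma, adjusted p = 0.392), and leaving out compound mutant replicate 1 or 2 gave −0.39 and −0.026 (adjusted p = 0.0478 and 0.898).

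*Cx3cr1* encodes the fractalkine receptor of monocytes, microglia and many fetal macrophages. It was 1.95, 1.87, 1.97 and 1.90 in wild-type, 1.79, 1.89, 1.84 and 1.82 in Cilk1-/- and 2.10, 1.68 and 1.87 in compound mutant libraries. Wild type and Cilk1-/- overlapped in one library each way, at 1.87 and 1.89, and the difference was −0.09 (95% interval −0.27 to 0.09, limma, adjusted p = 0.602). The exact permutation test of that difference gave p = 0.0571 (two-sided, 4 against 4 libraries, smallest possible 0.0286). That test treats these libraries as independent of each other, which they are not, so its p is not read further.

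The 3 chains of C1q, the recognition unit of the classical complement pathway, are made in tissues mainly by macrophages and assemble into one protein. *C1qa* was 3.10, 2.88, 3.26 and 2.88 in wild-type, 3.05, 3.26, 3.03 and 3.16 in Cilk1-/- and 3.35, 2.57 and 3.23 in compound mutant libraries. *C1qb* was 3.29, 3.26, 3.64 and 3.37 in wild-type, 3.48, 3.53, 3.22 and 3.30 in Cilk1-/- and 3.50, 3.02 and 3.43 in compound mutant libraries. *C1qc* was 2.95, 2.88, 3.18 and 2.78 in wild-type, 3.06, 3.10, 2.95 and 3.09 in Cilk1-/- and 3.20, 2.61 and 3.23 in compound mutant libraries. All 3 chains were lowest in compound mutant replicate 2, and the other 2 compound mutant libraries lay within or above the range of wild type. The log2 fold changes of the 3 chains lay between −0.01 and 0.10 in Cilk1-/- against wild type, between −0.07 and 0.07 in the compound mutant against wild type and between −0.07 and −0.04 in the compound mutant against Cilk1-/-, with adjusted p-values of 0.719 or more (limma).

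*Cd68*, which encodes a lysosomal glycoprotein of phagocytes, was the steadiest gene in the compound mutant. It was 3.23, 3.08, 3.28 and 3.02 in wild-type, 3.01, 3.26, 3.08 and 3.31 in Cilk1-/- and 3.12, 3.03 and 3.13 in compound mutant libraries. The 3 groups overlapped. Its differences were 0.01 (95% interval −0.16 to 0.19), −0.06 (−0.25 to 0.13) and −0.07 (−0.26 to 0.12) for Cilk1-/- and the compound mutant against wild type and the compound mutant against Cilk1-/- (limma, adjusted p = 0.960, 0.705 and 0.669).

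*Lyz2* encodes lysozyme M, a secreted antibacterial enzyme of macrophages and neutrophils. It was 3.85, 3.67, 4.17 and 3.65 in wild-type, 3.51, 3.87, 3.70 and 3.81 in Cilk1-/- and 3.27, 3.37 and 3.43 in compound mutant libraries. Every compound mutant library lay below all 8 other libraries. On the linear scale the means were 13.4 ± 2.53 in wild type, 12.3 ± 1.40 in Cilk1-/- and 9.25 ± 0.549 in the compound mutant (SD, n = 4, 4 and 3). The log2 fold change against wild type was −0.48 ± 0.12 (SE, 95% interval −0.75 to −0.21), with an adjusted p under the threshold (limma, adjusted p = 0.0469) but a fold change under the minimum, so it was not called. With the replicate number as a block the difference was −0.50 (adjusted p = 0.150), without compound mutant replicate 1 it was −0.44 (adjusted p = 0.106), and over 20 alternatives the adjusted p lay between 0.0414 and 0.649 and under 0.05 in 6, of which 2 were among the 11 that left out 1 library. Against Cilk1-/- the difference was −0.37 ± 0.12 (SE, 95% interval −0.64 to −0.10, adjusted p = 0.116). Within the set taken to hold the compound mutant libraries, their mean was 0.29 below wild-type replicate 4 and 0.46 below Cilk1-/- replicate 4.

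**Figure D2:**
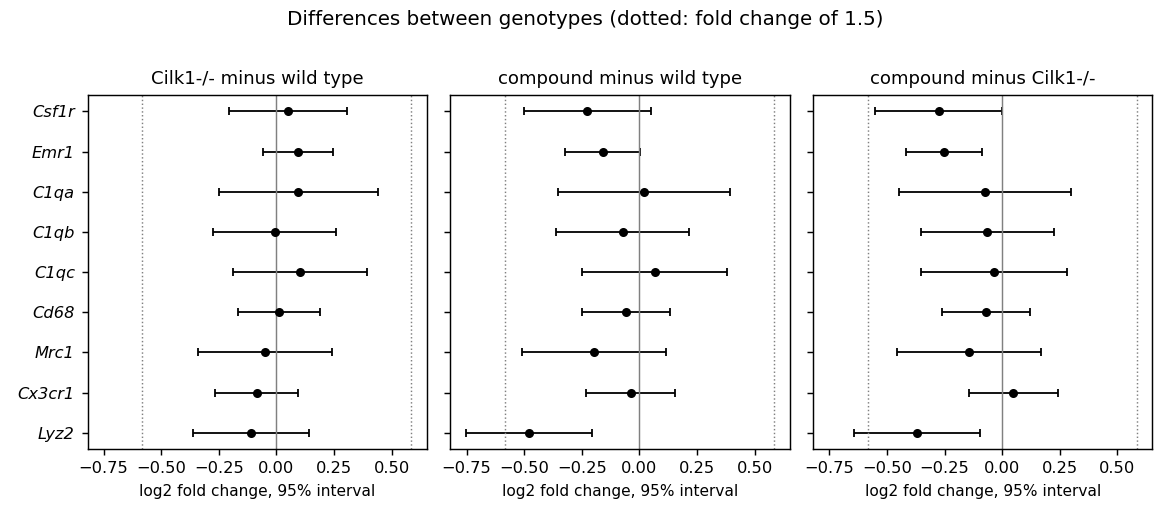
The log2 fold change of each macrophage gene (points) and its 95% interval from limma (bars) are plotted for the 3 comparisons, with dotted lines at a fold change of 1.5. All 9 intervals of Cilk1-/- minus wild type lie between the dotted lines, and Lyz2 is the lowest gene in both comparisons of the compound mutant, at −0.48 and −0.37.

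Over the 9 genes, 0 were called in Cilk1-/- against wild type (limma), where 0.215% of all genes were called lower and 0.155% higher. Their log2 fold changes ran from −0.11 for *Lyz2* to 0.10 for *C1qc*, 0 of 9 had an unadjusted p under 0.05 beside 11.1% of all genes lower and 9.57% higher, and their median was 0.01 beside 0.0032 over all genes. The 95% interval of every member stayed within a fold change of 1.5 in either direction, also with the replicate number as a block. These intervals leave room for smaller differences. In the compound mutant against wild type 0 of 9 were called (limma), where 0.633% of all genes were called lower and 0.615% higher. One member, *Lyz2*, had an adjusted p under 0.05 in the lower direction, as did 3.75% of all genes, and it was also the 1 of 9 with an unadjusted p under 0.05, beside 13.8% of all genes lower and 12.9% higher. Its libraries lay wholly below wild type, 1 of 9 beside 9.05% of all genes. The median of the 9 genes was −0.07 beside −0.0016 over all genes, with 7 below 0 and 2 above.

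In the compound mutant against Cilk1-/-, 0 of 9 were called (limma), where 0.388% of all genes were called lower and 0.155% higher. An unadjusted p under 0.05 in the lower direction was found for *Csf1r*, *Emr1* and *Lyz2*, 3 of 9 beside 12.3% of all genes, and in the higher direction for 0 of 9 beside 10.9%. The libraries did not overlap for *Emr1* and *Lyz2*, 2 of 9 beside 9.3% of all genes. The median was −0.07 beside 0.0028 over all genes. This comparison shares the compound mutant libraries with the one before it.

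In 7 of the 9 genes the SD was largest in the compound mutant, *Cd68* and *Lyz2* being the exceptions, which is 77.8% of the members beside 76.3% of all 16755 genes. The wider spread was thus general to these libraries. Compound mutant replicate 2 was the lowest of all 11 libraries for 7 members, *Csf1r*, *Emr1*, *C1qa*, *C1qb*, *C1qc*, *Mrc1* and *Cx3cr1*. Compound mutant replicate 1 was the highest for 3 members, *C1qa*, *Mrc1* and *Cx3cr1*, and the lowest for *Lyz2*. The SD in the compound mutant was 4.78 times that of wild type for *Cx3cr1*, 3.89 times for *Mrc1*, 2.44 times for *Csf1r* and 0.323 times for *Lyz2*, beside a median of 1.82 over all genes. Because the wild-type and Cilk1-/- libraries mirror each other, an adjustment before deposit could have made their SDs too small and these ratios and the tests' precision too large, which was not tested. Summed levels of 12 neuron genes were 70.0 to 267 in the compound mutant, 64.2 to 73.2 in Cilk1-/- and 52.0 to 62.3 in wild type, and those of 11 skeletal muscle genes were 8.90 to 10.5, 23.5 to 62.8 and 10.9 to 34.9. In the compound mutant against wild type, all 12 neuron genes had log2 fold changes above 0. An unadjusted p under 0.05 (limma) was found for 10 of them, beside 12.9% of all genes higher. Of the 12 neuron genes 1 was called higher in the compound mutant against wild type, beside 0.615% of all genes. It was *Tubb3*, a neuronal tubulin (mean 5.67 and 4.17, limma, adjusted p = 0.0268). In the compound mutant against Cilk1-/-, all 11 muscle genes had log2 fold changes below 0. An unadjusted p under 0.05 (limma) was found for 9 of them, beside 12.3% of all genes lower. Of the 11 muscle genes 3 were called lower in the compound mutant against Cilk1-/-, beside 0.388% of all genes. They were *Acta1*, *Actc1* and *Myh3* (log2 fold changes −1.71, −2.35 and −1.52, limma, adjusted p = 0.0417, 0.0223 and 0.0318). With the replicate number as a block, none of the 4 was called (adjusted p = 0.127, 0.218, 0.181 and 0.192), and of 11 fits that left out 1 library they were called in 8, 2, 10 and 5. The genes with the highest mean were *Gap43*, of growing axons, at 4.50 to 5.32 over the 11 libraries, and *Mylpf*, a muscle myosin light chain, at 1.66 to 3.91. The summed level of 10 dental epithelium genes was 530, 799 and 1278 in compound mutant replicates 1 to 3 and 969 to 1230 in the other libraries, and that of 12 dental mesenchyme genes was 430, 735 and 617 beside 650 to 793. The highest of these were *Krt5*, a basal keratin, and *Barx1*, a homeobox gene of molar mesenchyme. Of the 10 epithelium genes 1 was called lower in the compound mutant against wild type, beside 0.633% of all genes. It was *Sostdc1*, a secreted BMP and Wnt antagonist (log2 fold change −1.31, limma, adjusted p = 0.00622, and 0.0341 with the block). The part of these other tissues in the spread of the macrophage genes was not tested.

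**Figure D3:**
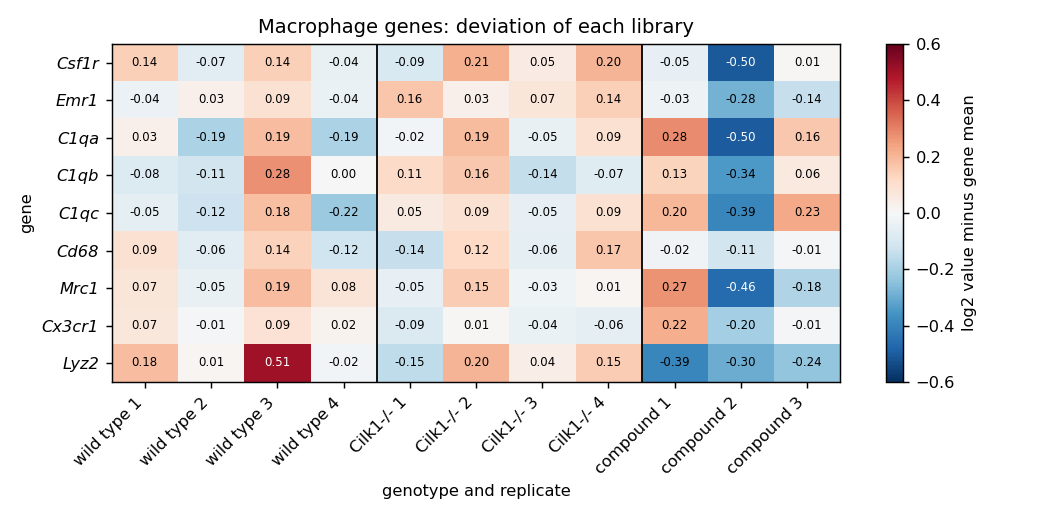
Each cell gives the log2 value of one macrophage gene (rows) in one library (columns, by genotype and replicate) minus the mean of that gene over the 11 libraries, colored from blue for lower to red for higher. Compound mutant replicate 2 is below the mean in all 9 genes, and Lyz2 is below it in all 3 compound mutant libraries, while wild type and Cilk1-/- of the same number often take opposite signs.

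The opposite deviations of equally numbered wild-type and Cilk1-/- libraries were seen in the members as well. In 6 members, the wild-type and Cilk1-/- libraries lay on opposite sides of their group means in 4 of 4 numbers. The mean of the wild-type and Cilk1-/- library of one number therefore moved little between numbers, by 0.07 for *Csf1r*, where single libraries ranged over 0.21 in wild type and 0.30 in Cilk1-/-. For *Lyz2* these ranges were 0.26, 0.52 and 0.35.

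Pearson correlations of the members' deviations from their genotype means over the 11 libraries ran from 0.023 to 0.980 in 36 pairs, with a median of 0.66. They are descriptions of libraries that share those deviations, with no test. *Mrc1* and *Cx3cr1* were the closest pair, at 0.98, and *C1qa* and *C1qc* reached 0.96. *Lyz2* was close to *Cd68*, at 0.83, and far from *Emr1*, at 0.023. These values depend on the compound mutant: over the 8 other libraries the range was −0.31 to 0.96, the closest pair was *Csf1r* and *Cd68*, and *Cx3cr1* with *Lyz2* went from 0.14 to 0.84. The level of *Lyz2* minus the mean of the 3 C1q chains, a contrast chosen after the values were seen, was 0.64 to 0.81 in wild-type libraries, 0.32 to 0.64 in Cilk1-/- libraries and −0.08, 0.63 and 0.13 in compound mutant replicates 1 to 3. *Lyz2* was thus below the mean of the chains in one library, compound mutant replicate 1, though above *C1qc* there, and level with Cilk1-/- in replicate 2.

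Among 13019 other genes with a mean of at least 1, the 10 whose deviations were most like the average of the 9 members over the 11 libraries were *BC004004* (0.99), *Neat1* (0.98), *Emilin3*, *Shisa5*, *Ppap2c* and *Matn4* (0.97), and *S100a1*, *Pcdhgb1*, *Nts* and *Ogn* (0.96 to 0.97). Of the genes in the macrophage lists, *Apoe* and *Fcer1g* came closest, both at 0.95. *Apoe* encodes a lipid carrier that macrophages secrete, and *Fcer1g* the signaling chain of Fc receptors. Of 12 dental mesenchyme genes, with a median of −0.34, some ran against the members' average and are named after their values were seen, with *Msx1* at −0.95, *Lhx6* at −0.94, *Lhx8* at −0.94 and *Runx2* at −0.87, and at −0.90, −0.93, −0.88 and −0.64 over the 8 wild-type and Cilk1-/- libraries. Others of the list ran with the average, *Fgf10* at 0.59, *Alx1* at 0.47, *Msx2* at 0.28 and *Fgf3* at 0.21, and at 0.94, −0.025, 0.23 and 0.74 over the 8 libraries. Those 8 libraries mirror each other by number and are not independent, so their correlations are descriptions only. The part of the mesenchyme in the spread of the macrophage genes was not tested.

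Macrophage genes beyond the 9 were taken from 5 lists of ligands, receptors, intracellular adaptors and kinases, transcription factors, and lysosomal and secreted products, of which 118 of 126 genes were measured. In Cilk1-/- against wild type, 0 of the 118 were called (limma), and 9 had an unadjusted p under 0.05 in each direction, beside 11.1% of all genes lower and 9.57% higher. In the compound mutant against wild type, 3 were called lower, beside 0.633% of all genes, and 0 higher, and 10 had an adjusted p under 0.05 in the lower direction, beside 3.75% of all genes, and 1 in the higher. An unadjusted p under 0.05 was found there for 25 in the lower and 9 in the higher direction, beside 13.8% and 12.9% of all genes. In the compound mutant against Cilk1-/-, 0 were called in either direction (limma), and 19 had an unadjusted p under 0.05 in the lower and 3 in the higher direction, beside 12.3% and 10.9% of all genes. The adjusted p was under 0.05 for 5 in the lower and 0 in the higher direction. The share of all genes under that adjusted p was counted only for the lower direction against wild type. The counts against Cilk1-/-, and the 1 in the higher direction against wild type, therefore have no share beside them and are not read as an excess. The medians of the 118 were −0.0060, −0.05 and −0.07 in the 3 comparisons, close to those of the 9 members in the latter 2. The genes with the highest mean in these lists were *Cxcl12*, *Axl*, *Cyba*, *Id3* and *Cd63*, all of which are also made outside macrophages.

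The 3 genes called lower in the compound mutant against wild type were *Batf3*, *Cxcl12* and *C3*. *Batf3*, a transcription factor known from dendritic cells, was 3.39 to 3.79 in wild-type, 2.69 to 3.01 in Cilk1-/- and 1.89, 2.69 and 2.74 in compound mutant libraries, a log2 fold change of −1.18 ± 0.19 (SE, limma, adjusted p = 0.0103, and 0.0758 with the replicate number as a block). *Cxcl12*, a chemokine of mesenchymal cells that draws and holds blood cells, fell by 0.80 ± 0.19 (SE, adjusted p = 0.0379, and 0.125 with the block), and it was called in 3 of 11 fits that each left out 1 library, with adjusted p-values from 0.0120 to 0.106. Compound mutant replicate 3 was the lowest, at 5.05 against 5.88 and 5.95, and without it the difference was −0.51, under the fold minimum. *C3*, the central complement protein, was 0.88 to 1.59 in wild-type, 0.18 to 0.78 in Cilk1-/- and 0.0092 to 0.099 in compound mutant libraries. The Cilk1-/- libraries also lay wholly below wild type, with a difference that did not pass (−0.72 ± 0.19, SE, limma, adjusted p = 0.0675). The compound mutant had a log2 fold change against wild type of −1.15 ± 0.20 (SE, limma, adjusted p = 0.0139, and 0.121 with the block). The size depends on the constant added before the log, and with 0.1 in place of 1 it was −3.32 (adjusted p = 0.00553). The linear means of *C3* in wild type and the compound mutant were 1.35 ± 0.60 and 0.0385 ± 0.0323 (SD, n = 4 and 3).

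A few further genes passed the adjusted p without the fold minimum and are named because they bear on how macrophages form and survive, a choice made after their values were seen. Those named were all lower in the compound mutant. Against wild type, 10 genes of the 5 lists passed the adjusted p in the lower direction, and not all are named. The 1 that passed in the higher direction, a receptor gene, is not named either. Of the 33 receptor genes, 0 passed in the lower direction, and 20 had log2 fold changes below 0 and 13 above. Over all 118 genes of the lists, 70 were below 0 and 48 above. *Spi1*, which encodes PU.1, was 2.34, 2.30, 2.53 and 2.29 in wild-type, 2.46, 2.60, 2.44 and 2.61 in Cilk1-/- and 2.03, 2.11 and 2.0 in compound mutant libraries. All compound mutant libraries lay below all others. The log2 fold change was −0.31 ± 0.07 (SE) against wild type and −0.48 ± 0.07 (SE) against Cilk1-/- (limma, adjusted p = 0.0359 and 0.0125), and with the replicate number as a block the adjusted p was 0.183 and 0.173. Against wild type, *Spi1* kept an adjusted p under 0.05 in 2 of 11 fits that left out 1 library, and against Cilk1-/- in 11 of 11. Over 20 alternatives, the adjusted p of *Spi1* was under 0.05 in 7 against wild type and in 16 against Cilk1-/-. It reached 0.654 and 0.822 in the others (limma).

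*Csf1*, the main ligand of Csf1r, was 3.34 to 3.42 in wild-type, 3.26 to 3.37 in Cilk1-/- and 2.99, 2.89 and 3.21 in compound mutant libraries. Its log2 fold change was −0.35 ± 0.07 against wild type and −0.30 ± 0.07 against Cilk1-/- (SE, limma, adjusted p = 0.0190 and 0.0439, and 0.122 and 0.215 with the block). *Il34*, the second ligand of Csf1r, was 0.49 to 0.54, 0.56 to 0.70 and 0.13 to 0.44 in the 3 groups, a difference of −0.31 against Cilk1-/- that did not pass (limma, adjusted p = 0.0525). *Rac2*, a small GTPase of blood cells, was 1.44 to 1.73, 1.40 to 1.71 and 1.13 to 1.19 in the 3 groups, with log2 fold changes of −0.38 against wild type and −0.44 against Cilk1-/- (adjusted p = 0.0432 and 0.0388, and 0.201 and 0.235 with the block). With 1 library left out, the adjusted p of *Rac2* was under 0.05 in 2 of 11 fits against wild type and 4 of 11 against Cilk1-/-, and that of *Csf1* in 9 and 1.

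**Figure D4:**
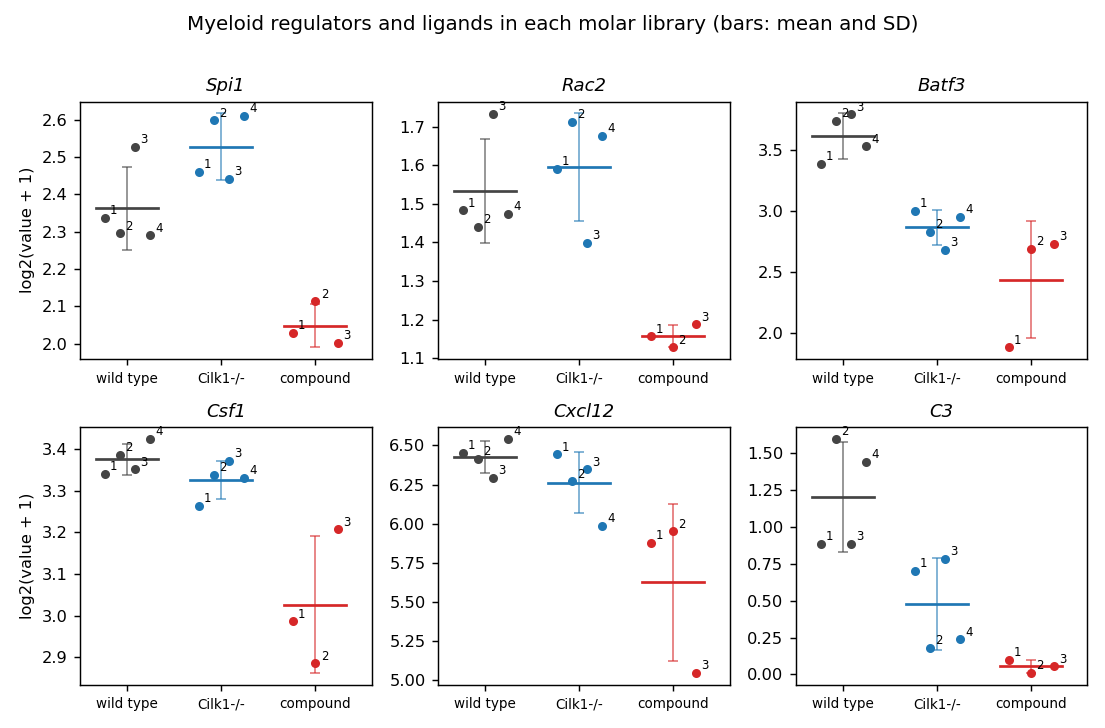
Each panel plots the log2(value + 1) of one myeloid regulator or macrophage ligand in every library by genotype, numbered by replicate, with the line at the mean and the bar at 1 SD (n = 4, 4 and 3; the vertical scale differs between panels and does not start at 0). Spi1 and Rac2 are lower in the 3 compound mutant libraries, at 2.0 to 2.11 and 1.13 to 1.19, than in all others, and C3 is close to 0 there, at 0.0092 to 0.099.

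Other well-known leukocyte genes, likewise picked with their values seen, did not pass the test. *Fcer1g*, *Tyrobp*, which encodes the adaptor DAP12, and *Aif1*, which encodes the macrophage protein IBA1, had log2 fold changes of 0.04, −0.13 and 0.13 in the compound mutant against wild type (limma, adjusted p = 0.883, 0.587 and 0.344). *Irf8*, a transcription factor of monocytes and macrophages, had −0.16 (adjusted p = 0.367), and *Ptprc* had −0.23 (adjusted p = 0.138).

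Complement genes beyond C1q were read from a list with 20 of 27 genes measured. In the compound mutant against wild type 1 was called lower, *C3*, and 0 were called higher, beside 0.633% and 0.615% of all genes (limma). In the other comparisons 0 were called, where 0.155% to 0.388% of all genes were called in a given direction. The gene with the highest mean was *C1qbp*, which encodes a mitochondrial protein that can bind C1q. Of 9 genes known from microglia, the macrophages of the brain, 1 was called higher in the compound mutant against wild type, beside 0.615% of all genes. This gene, *Sall1*, was at 1.58 to 2.94 against 0.83 to 1.27 in wild type, a log2 fold change of 1.25 ± 0.25 (SE, limma, adjusted p = 0.0223, and 0.119 with the block). *Sall1* was also called higher against Cilk1-/- (log2 fold change 1.10), beside 0.155% of all genes, but in only 1 of 11 fits that left out 1 library. *Sall1* is also made by embryonic mesenchyme and epithelium. Of the other microglial genes, *Tmem119* had a mean of 5.20 in wild type and 5.05 in the compound mutant, *Fcrls* 2.42 and 2.18, *Siglech* 0.10 and 0.052, and *Sparc*, an abundant matrix gene of mesenchyme, was the highest at 7.80 to 8.60 over the 11 libraries.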

How the data were processed

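Bulk RNA-seq was analysed from the deposited table of 11 libraries. The authors mapped paired-end reads to mm10 (HISAT2 2.0.5), counted them per gene (featureCounts 1.5.0-p3) and calculated FPKM. The deposited log2 values appear to be log2(FPKM + 1) with a further adjustment that is not given in the sources used here. Counts were not used here and depth per library is unknown, so precision rests on the spread between libraries. One limma 3.58.1 model (R 4.3.3, eBayes with trend and robust) was fitted over 3 genotypes and 16755 genes with no covariate and Benjamini-Hochberg adjustment. Single genes were also tested by exact permutation (scipy 1.17.1). Scripts were tested on simulated data. All 9 members were named. From the other lists, the rule named genes called in any comparison and the gene with the highest mean. One gene of the lists is not reported here. Members and lists were chosen with earlier results of these data known. Alternatives were other normalizations, a pseudocount of 0.1, a filter at a mean of 1, other model terms and leaving out each library. Positions are from GENCODE release 21 for mouse, and *Emr1* was matched as *Adgre1*.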

Additional observations from a re-analysis of the deposited data

Results flagged for a closer look

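In the 9 macrophage genes, the wild-type and Cilk1-/- groups of 4 libraries gave 18 sets of values, and in 0 of them did one library stand apart by Dixon's test at its 95% critical value. The compound mutant, with 3 libraries, was not tested in this way.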

How the results depend on the processing

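The count of macrophage genes called was 0 in the 3 comparisons under every alternative run except with no fold minimum, under which it was 1 (*Lyz2*) for the compound mutant against wild type. The replicate block left the counts at 0. The labels do not say that the numbers pair the libraries, and same-numbered wild-type and Cilk1-/- libraries deviated in opposite directions, so the block is given as an alternative only. Outside the leave-one-out fits, *Cd68* in Cilk1-/- against wild type changed sign to −0.0055 with median centring, and *C1qc* in the compound mutant against Cilk1-/- changed sign to 0.026 both with a term for the library set and with the block that placed the compound mutant libraries in pair 4.

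With each library left out in turn, values for Cilk1-/- against wild type that crossed 0 ranged for *Cd68* from −0.037 to 0.065, *C1qb* from −0.056 to 0.077 and *Lyz2* from −0.17 to 0.00069. With each library left out in turn, values for the compound mutant against wild type that crossed 0 ranged for *C1qa* from −0.13 to 0.26, *C1qb* from −0.16 to 0.074, *C1qc* from −0.040 to 0.27 and *Cx3cr1* from −0.15 to 0.065. With each library left out in turn, values for the compound mutant against Cilk1-/- that crossed 0 ranged for *Cx3cr1* from −0.060 to 0.15, *C1qa* from −0.22 to 0.17, *C1qb* from −0.16 to 0.082, *C1qc* from −0.14 to 0.17 and *Mrc1* from −0.34 to 0.024. Alternatives were also run, as a choice made after seeing the data, for the genes of the other lists that were called in any comparison and for *Spi1*, *Csf1* and *Rac2*, and 0 of these changed direction. In this set, the compound mutant against wild type lost a call 27 times under the block terms, the set term and the fit of the compared genotypes alone, and 22 times with 1 library left out. Against Cilk1-/-, calls of *Sall1*, *Acta1*, *Actc1* and *Myh3* were lost 16 times under those same 4 fits, and 26 times with 1 library left out. Calls were gained in Cilk1-/- against wild type 5 times, by *Batf3*, *Sostdc1* and *C3* with the compared genotypes alone and by *Batf3* and *Sostdc1* among genes with a mean of at least 1, and 6 times with 1 library left out, 3 each for *Batf3* and *Sostdc1*. With a pseudocount of 0.1 the compound mutant gained *Actc1* against wild type and *Spi1* and *Rac2* against Cilk1-/-, and with 1 library left out it gained 3 calls against Cilk1-/-, 1 each of *Cxcl12*, *Sostdc1* and *Tubb3*. Depth is unknown, low genes such as *Emr1* understate a fold change on this scale, and the cause of the changes above was not tested.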

Other observations

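Of 13 osteoclast genes, 0 were called in the 3 comparisons (limma), where 0.155% to 0.633% of all genes were called in a given direction. The one with the highest mean was *Ctsk*, the bone-resorbing protease, at 5.09 to 5.73 in Cilk1-/- and 4.92 to 5.77 in the compound mutant. *Tnfsf11*, the ligand RANKL that drives osteoclasts, was 1.89 to 2.22 in wild-type, 1.61 to 1.90 in Cilk1-/- and 1.52 to 1.70 in compound mutant libraries, and its receptor gene *Tnfrsf11a* was 0.95 to 1.25, 0.69 to 0.97 and 0.55 to 0.79. Both were chosen after their values were seen, as the 2 of 13 with an adjusted p under 0.05 in the compound mutant against wild type (limma, 0.0193 and 0.0259), both lower, beside 3.75% of all genes, and 9 of the 13 were below 0 and 4 above. How far *Tnfsf11* and *Tnfrsf11a* depend on single libraries or on the library set was not tested. *Tnfrsf11b*, which encodes the RANKL decoy receptor, differed by 0.33 (log2) in the other direction, with an adjusted p of 0.277.

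Of 9 mast cell and megakaryocyte genes, 1 was called lower in the compound mutant against wild type, beside 0.633% of all genes. This gene, *Cpa3*, the mast cell carboxypeptidase, was at 1.03 to 1.66 in wild-type and 0.37 to 0.91 in compound mutant libraries. Its log2 fold change was −0.66 ± 0.17 (SE, limma, adjusted p = 0.0442, and 0.173 with the block). It was called in 2 of 11 fits that left out 1 library, those without compound mutant replicate 1 or 2 (adjusted p over the 11 from 0.0296 to 0.0983). Of 11 monocyte and neutrophil genes, 9 dendritic cell and MHC class II genes and 6 lymphocyte genes, 0 were called in the 3 comparisons (limma), beside the same shares of all genes. The neutrophil gene *S100a8* was the highest of the first list, at 1.88 to 3.11 in wild-type and 0.75 to 2.45 in compound mutant libraries. The highest of the other blood lists were *Cd74* of antigen-presenting cells at 1.96 to 2.53 in wild type, *Lck* of lymphocytes at 1.85 to 2.07 and *Pf4*, known from megakaryocytes, at 2.52 to 3.11. *Pf4* was also in the list of lysosomal and secreted macrophage products. Its deviations had a correlation of 0.88 with the members' average, so its level is not read as one of megakaryocytes alone. Of 14 erythroid genes, 0 were called (limma), again beside those shares. Their summed level was 2895 to 3788 in wild-type, 2968 to 4185 in Cilk1-/- and 2922, 3816 and 1063 in compound mutant libraries, with *Hba-a1*, an alpha-globin gene, the highest. Of 18 endothelial genes, 0 were called, again beside those shares, and *Cdh5*, the cadherin of endothelial junctions, was the highest at 4.64 to 5.06 over the 11 libraries.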
